A study of Mus musculus with 75 samples.

Results

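The 100 protein-coding genes described here had, in the lung of mice given bleomycin, a mean level on day 7 that stood furthest above the means of all later days. They were chosen by the group means of log2(CPM + 1), where CPM is the count of a gene scaled to the total count of its library. Among 13247 protein-coding genes with a mean of at least 2 CPM over all 75 mice, 6939 lay above the saline mean on day 7. These were ranked by the day 7 minus saline difference less the largest of the same difference on the 5 later days, and the first 100 of the 2497 genes with a positive score were taken, out of 55536 genes in the table. All 7 group means of each gene entered this choice, so levels and differences of the 100 genes are given as a description and carry no test. Male C57BL/6JRj mice aged 12 to 14 weeks received a single intratracheal instillation of bleomycin, a drug that injures the alveolar epithelium and is used to model idiopathic pulmonary fibrosis. RNA of the inferior lobe was sequenced in 10 controls and in 10 bleomycin mice of day 7, 12 mice of each of days 14, 21, 28 and 35 and 7 mice of day 42, with 1 library per mouse. The sample labels name the controls saline, whereas the study's methods call them untreated. Bleomycin mice were randomized only if they had lost a mild to moderate amount of weight the day before the first time point, and the lung had been rinsed to collect lavage fluid, so part of the free airspace cells may be missing from the tissue.

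Several of the gene groups below belong to known programmes. Cells short of cholesterol activate SREBP2, a transcription factor that switches on the enzymes from mevalonate to cholesterol. Damaged DNA stabilizes p53, which induces cell cycle inhibitors and stress genes. Injured barrier epithelium releases the alarmin IL-33, and the chemokines CCL17 and CCL22 attract T helper 2 cells through CCR4 while CCL11 attracts eosinophils. After alveolar injury, cells on the way from type 2 to type 1 pneumocytes pass through a state marked by Krt8. In whole tissue a lower level can mean fewer cells of a type or less RNA per cell, and these cannot be told apart.

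The name of the set holds for its means, by construction, but different time courses met the rule. The day 7 minus saline difference ranged from 0.00029 to 4.69 with a median of 0.56 on the log2 scale, against 0.017 over all 13247 genes. It reached 1 in 25 of the 100 genes, lay under 0.5 in 46 and under 0.25 in 24. On the later days, 33 genes stayed above the saline mean throughout, 40 were below it on all 5 days, and 27 lay above it on some days and below on others. Taken over the 100 genes, days 14, 21, 28, 35 and 42 had medians of 0.035, -0.064, -0.088, -0.016 and -0.074. Genes such as Sprr1a and Retnla were thus far above saline on day 7 and declined while still above it. Others, such as the complement component C7 and the endothelial lipase Lipg, were near the saline level on day 7 and lower afterwards, so their place in the set rests on the later days. The highest later mean fell on day 14 in 48 genes, on day 35 in 26, on days 21 and 42 in 12 each and on day 28 in 2.

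**Figure D1:**
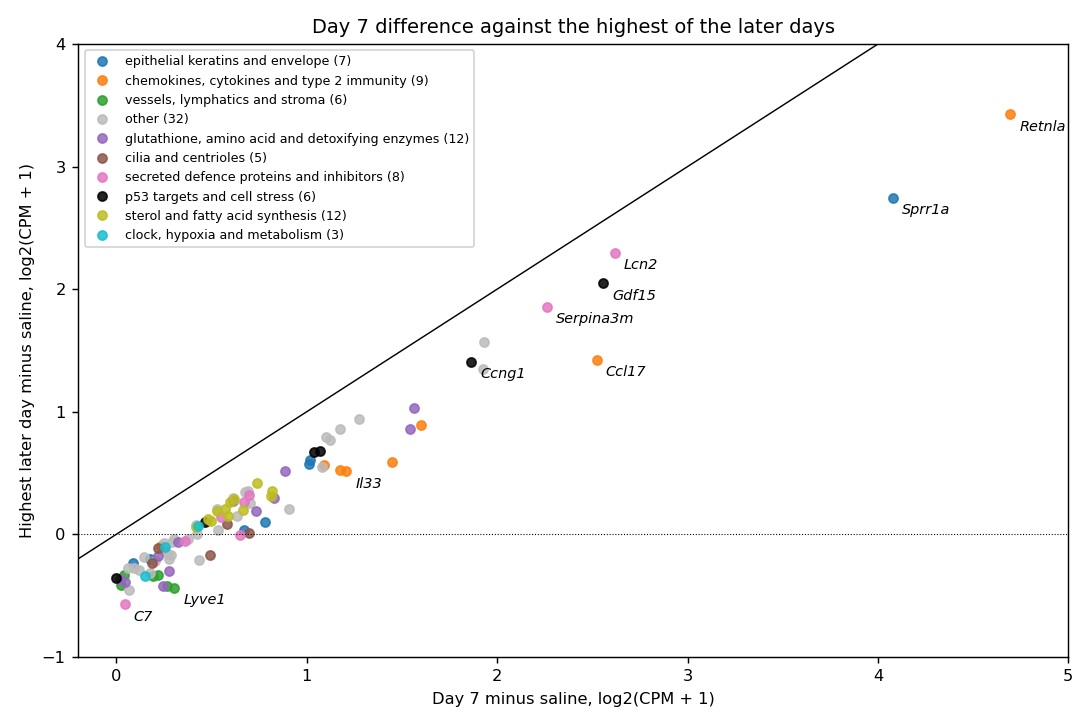
Each point is 1 of the 100 genes, with the day 7 minus saline difference on the x axis and the largest later difference on the y axis, both of group means of log2(CPM + 1), coloured by role. All points lie under the solid line of equality, as the rule requires, and the genes under the dotted line were below saline on all 5 later days (40 genes).

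The values of single mice overlapped between groups in most of the genes. In 35 of the 100 genes all 10 day 7 mice lay above all 10 saline mice, which held for 8.91% of the 13247 genes. All 10 day 7 mice lay above all 12 day 14 mice in 8 of the 100, namely Hsd11b2, Sqle, Cth, Acat2, Msmo1, Ssx2ip, Nsdhl and Fdft1, against 0.121% of the 13247. Both contrasts were part of the rule and nothing is read from these shares. No gene had all day 7 mice above all 65 other mice, and the most any of the 100 reached was 8 of 10 day 7 mice, in Sprr1a and Tubb4b. The genes were of ordinary abundance, with mean levels from 2.05 to 851 CPM (Hp) and a median of 23.9 against 32.5 CPM over the 13247, and 35 were under 10 CPM. The score was 1.34 for the first gene, 0.42 at the median and 0.31 for the last. At the boundary, Prcd, Atp6v0a4 and Mybl1 were the last inside with scores of 0.32, 0.31 and 0.31, and Mthfd1l, Serpini1 and Nkd1 the first outside with 0.31, 0.31 and 0.31, so the 100th place marks no step.

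One day 7 mouse carried the highest value more often than the others. Replicate 5 was the highest of the 10 day 7 mice in 52 of the 100 genes, against 12.3% of the 13247 genes, and replicate 1 was the lowest in 46, against 12.4%. Over the 100 genes, replicate 5 lay 0.36 above the day 7 mean on the log2 scale on average, and replicate 1 had a mean deviation of -0.32. Without replicate 5 the median day 7 difference was 0.52, 97 genes were still above saline on day 7 (not Kyat3, Chac1 and Bcar3), all 100 were above every later day, and 88 were still in the first 100. The day 7 difference was over 1.5 times that without this mouse in 14 genes (Lyve1, Sult1a1, Rgcc, Gpr179, Lipg, Sh3d21, Gstk1, Rnf39, Akr1c14, Kyat3, Rasgrf1, Chac1, Bcar3 and Prrg3). It was at least 1 in 21 genes without it in place of 25, with Alpl at 0.88, Atp6v0a4 at 0.95 and Krt8 and Krt18 at 0.97 each. Replicate 8 held the most brown adipose marker RNA of the day 7 mice, 2033 CPM summed over 11 genes, against a day 7 median of 484. The summed fibroblast markers were highest in replicate 1 (13479 CPM) and lowest in replicate 5 (8135 CPM) among the day 7 mice. For club cell markers replicate 1 was lowest, at 10278 CPM, and replicate 5 had 21753 CPM. For type 2 pneumocyte markers both lay inside the day 7 range of 22609 to 37871 CPM, at 25883 and 23339 CPM. The part of these mice's tissue make-up in the results was not tested.

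**Figure D2:**
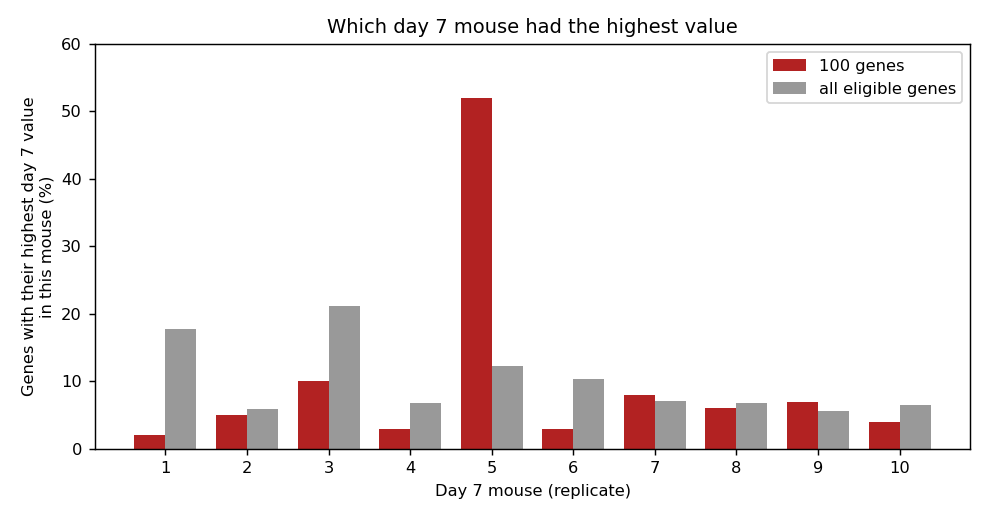
Bars give, for each of the 10 day 7 mice, the percentage of genes whose highest day 7 value was in that mouse, for the 100 genes (red) and for all 13247 eligible genes (grey). Replicate 5 reached 52% of the 100 genes and 12.3% of all.

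Sprr1a, a small proline-rich protein cross-linked into the envelope of squamous cells, ranked first. Sprr1a lay at 0 to 1.03 CPM (median 0.279) in the saline mice and at 14.1 to 31.9 CPM (median 22.3) on day 7. The day 14 mice lay at 5.64 to 14.9 CPM (median 7.53), the medians of days 21, 28 and 35 were 5.11, 3.62 and 1.98 CPM, and the day 42 range was 1.85 to 7.5 CPM (median 2.9). All 10 day 7 mice were above every saline mouse, and 8 were above all 65 other mice. The saline libraries held only 0 to 10 counts of the gene, so its difference of 4.08 ± 0.15 (SE) on the log2 scale rests on a low base. The summed level of 13 esophageal and squamous markers, 6.44 to 11.3 CPM in the saline mice and 9.18 to 15.5 CPM on day 7, overlapped between the groups.

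Krt19, a keratin of simple and airway epithelium at chr11:100140810-100148665 (GRCm38), lay at 149 to 225 CPM (median 186) in the saline mice and at 208 to 495 CPM (median 329) on day 7. It was at 159 to 274 CPM (median 189.7) on day 14, had medians of 196, 171 and 193 CPM on days 21, 28 and 35, and was at 163 to 218 CPM (median 194) on day 42. Of the day 7 mice, 9 were above the highest saline mouse and 7 above the highest day 14 mouse, and the day 14 median was close to that of saline. Krt8 and Krt18, the partner keratins of simple epithelium and neighbours on chromosome 15, had courses like each other. Their differences were 1.01 ± 0.10 and 1.02 ± 0.084 on day 7 and 0.57 and 0.57 on day 14, where that of Krt19 was 0.074. Krt8 lay at 119.8 to 173 CPM (median 146) in the saline mice, 228 to 382 CPM (median 296) on day 7 and 177 to 272 CPM (median 211) on day 14, and all its day 7 mice were above all saline mice. The calcium-binding annexin Anxa8 lay at 31.7 to 41.7 CPM (median 36.1) in the saline mice, 35.8 to 70.8 CPM (median 61.2) on day 7 and 23.7 to 66.7 CPM (median 35.6) on day 14. Of its day 7 mice, 9 were above the saline range, and replicate 1 was apart below the others. Evpl and Scel, envelope proteins of squamous cells, differed from saline by 0.18 and 0.09 on day 7, and Scel, which type 1 pneumocytes also express, was at -1.02 on day 35.

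Those 4 genes (Sprr1a, Krt19, Krt8 and Krt18) belong to a list of 18 markers of transitional alveolar epithelium. In edgeR's quasi-likelihood test over 16221 genes, 24.8% were called higher and 21.0% lower on day 7 than in saline, and 9.48% higher and 7.55% lower on day 14 than on day 7. These shares are the reference for the list counts below. Among the 14 other markers, 11 rose on day 7 and 1 fell, and 1 was lower and 2 were higher on day 14 than on day 7. In the same edgeR test, the AP-1 subunit Fosl1 rose by 3.50 ± 0.57 (SE, adjusted p = 7.7e-07), the cell cycle inhibitor Cdkn1a by 3.20 ± 0.16 (SE, adjusted p = 1.4e-27) and the tight junction protein Cldn4 by 2.95 ± 0.36 (SE, adjusted p = 4.8e-10) on the log2 scale on day 7. None of these 3 passed the test between day 14 and day 7, where the log2 fold changes were 0.39, -0.047 and 0.26. The median log2 fold change of these 14 was 1.10 on day 7 and 0.11 between day 14 and day 7, against -0.0024 and 0.0018 over all genes tested. With the 4 genes of the set, the list of 18 had a median of -0.054 between day 14 and day 7, with 5 lower and 2 higher. The rule took out genes that fell after day 7, so the rest of a list leans away from a fall. Here and in the lists below, the day 14 against day 7 values of genes outside the set are therefore a description. The split of calls between day 14 and day 7 depended on scaling: 55.7% of 2763 calls were higher on day 14 with TMM factors, 42.4% with library size only and 45.8% with upper quartile factors.

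The bases before the start of Sprr1a (chr3:92485882-92486131, minus strand, GRCm38.p6, RefSeq) are shown because the gene led the ranking and belongs to a family with AP-1 sites in its promoters. Capitals mark TGANTCA, the AP-1 core, which reads the same on both strands. It occurred at 2 places in these 250 bases, and no match overlapped another motif searched here (CCAAT, TCACNCCAC, the p53 half-site).
Sprr1a: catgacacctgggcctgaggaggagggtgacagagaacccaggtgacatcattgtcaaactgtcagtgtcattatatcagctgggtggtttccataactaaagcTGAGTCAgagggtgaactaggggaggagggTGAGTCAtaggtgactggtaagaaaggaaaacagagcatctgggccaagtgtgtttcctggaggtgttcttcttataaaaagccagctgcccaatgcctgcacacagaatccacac
The tables held a promoter of 300 bases for 74 of the 100 genes, and TGANTCA was in 6 of these 74 (8.11%) against 7.1% of 16522 promoters. A match is a description of the sequence, not a site shown to be bound.

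Genes of the type 2 immune response came next. Retnla (resistin-like molecule alpha), a secreted protein of alternatively activated macrophages and airway epithelium, had the largest day 7 difference of the set, 4.69 ± 0.20. Retnla lay at 20.1 to 47.2 CPM (median 32.3) in the saline mice and at 473 to 1264 CPM (median 873) on day 7. On day 14 its range was 122 to 685 CPM (median 435), the medians were 269, 165 and 95.9 CPM on days 21, 28 and 35, and the day 42 mice lay at 34.6 to 141 CPM (median 84.3). All 10 day 7 mice lay above all saline mice, and 7 above all 65 others, while the lowest day 42 mouse was at 34.6 CPM, inside the saline range. Ccl17 lay at 2.75 to 8.21 CPM (median 3.33) in the saline mice and at 16.8 to 33.7 CPM (median 25.5) on day 7. The day 14 mice lay at 4.92 to 28.4 CPM (median 13), the medians of days 21, 28 and 35 were 8.3, 6.38 and 7.5 CPM, and the day 42 range was 3.18 to 12 CPM (median 7.74). Saline replicate 2 was apart above the other saline mice for this gene, yet all 10 day 7 mice were higher still.

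Ccl22, 58754 bases from Ccl17 on chromosome 8 and a ligand of the same receptor, was at 6.8 to 12 CPM (median 8.82) in the saline mice and at 19.1 to 37 CPM (median 28.1) on day 7. It was at 9.16 to 31.9 CPM (median 17.9) on day 14, had medians of 16.1, 15.8 and 16.6 CPM on days 21, 28 and 35, and was at 9.08 to 19.5 CPM (median 16) on day 42. Its level flattened after day 7, with differences from saline between 0.68 and 0.89 on the later days. Ccl11 (eotaxin) was lower, at 2.32 to 4.84 CPM (median 3.28) in the saline mice and 6.21 to 23.7 CPM (median 9.71) on day 7. On day 14 its range was 1.72 to 7.7 CPM (median 4.06), the medians were 4.41, 4.25 and 5.64 CPM on days 21, 28 and 35, and the day 42 mice lay at 1.98 to 4.84 CPM (median 3.33). It returned nearly to saline by day 42, with a difference of 0.025, and without replicate 5 its day 7 difference was 1.33 in place of 1.44.

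Il33 is released from the nuclei of type 2 pneumocytes and stromal cells on injury. Il33 lay at 94.9 to 127 CPM (median 102) in the saline mice and at 168 to 300.3 CPM (median 256) on day 7. The day 14 mice lay at 15.9 to 197 CPM (median 136), the medians of days 21, 28 and 35 were 147, 146 and 128 CPM, and the day 42 range was 113 to 174 CPM (median 146). All day 7 mice lay above all saline mice, and the day 14 mice spread from below to above the saline range, with a mean difference of -0.10. Tslp, another epithelial alarmin, differed by only 0.23 ± 0.14 on day 7. Cxcl17, a mucosal chemoattractant, was 1.18 above saline on day 7 and 0.52 on day 14, and Mgl2, a lectin of CD301b dendritic cells and macrophages, 1.09 and 0.41. Tnfsf13b (BAFF), a survival factor of B cells, was 0.25 above saline on day 7 and below it on all 5 later days. Over the 9 genes of the group the median was 1.21 on day 7 and 0.41 on day 14. In 7 of the 9 all day 7 mice were above all saline mice, against 8.91% of the 13247 genes, and the rule used this contrast.

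A list of chemokines and inflammatory cytokines held 29 tested genes, 4 of them (Ccl17, Ccl11, Ccl22 and Il33) in the set. Of the other 25, 18 rose and 1 fell on day 7, and 3 were higher and 1 lower on day 14 than on day 7. The monocyte chemoattractants Ccl2, Ccl7 and Ccl8 rose on day 7 in edgeR's quasi-likelihood test by 3.99 ± 0.59 (SE, adjusted p = 7.5e-08), 3.35 ± 0.48 (SE, adjusted p = 5e-08) and 3.22 ± 0.37 (SE, adjusted p = 9.6e-11) on the log2 scale. Between day 14 and day 7 their log2 fold changes were 0.30, -0.13 and 0.41, and none passed. Cxcl12 changed sign with scaling on day 7, from -0.011 with TMM factors to 0.0086 with library size only, and did not pass, and was higher on day 14 than on day 7 in the edgeR test by 0.65 ± 0.18 (SE, adjusted p = 0.0073). Markers of monocyte-derived macrophages rose in 15 of 18 on day 7 and were higher again in 14 of 18 on day 14, with a summed level of 1474 to 1740.4 CPM in saline, 3171 to 6143 CPM on day 7 and 5110.3 to 22755 CPM on day 14. Of 9 tested eosinophil, mast cell and basophil markers, 1 rose on day 7 and 2 fell, against 24.8% and 21.0% of all genes tested. The sum over all 15 genes of that list was 412 to 501 CPM in saline and 326 to 400.1 CPM on day 7. The part of macrophage number in the course of Retnla, Mgl2 and the chemokines was not tested.

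**Figure D3:**
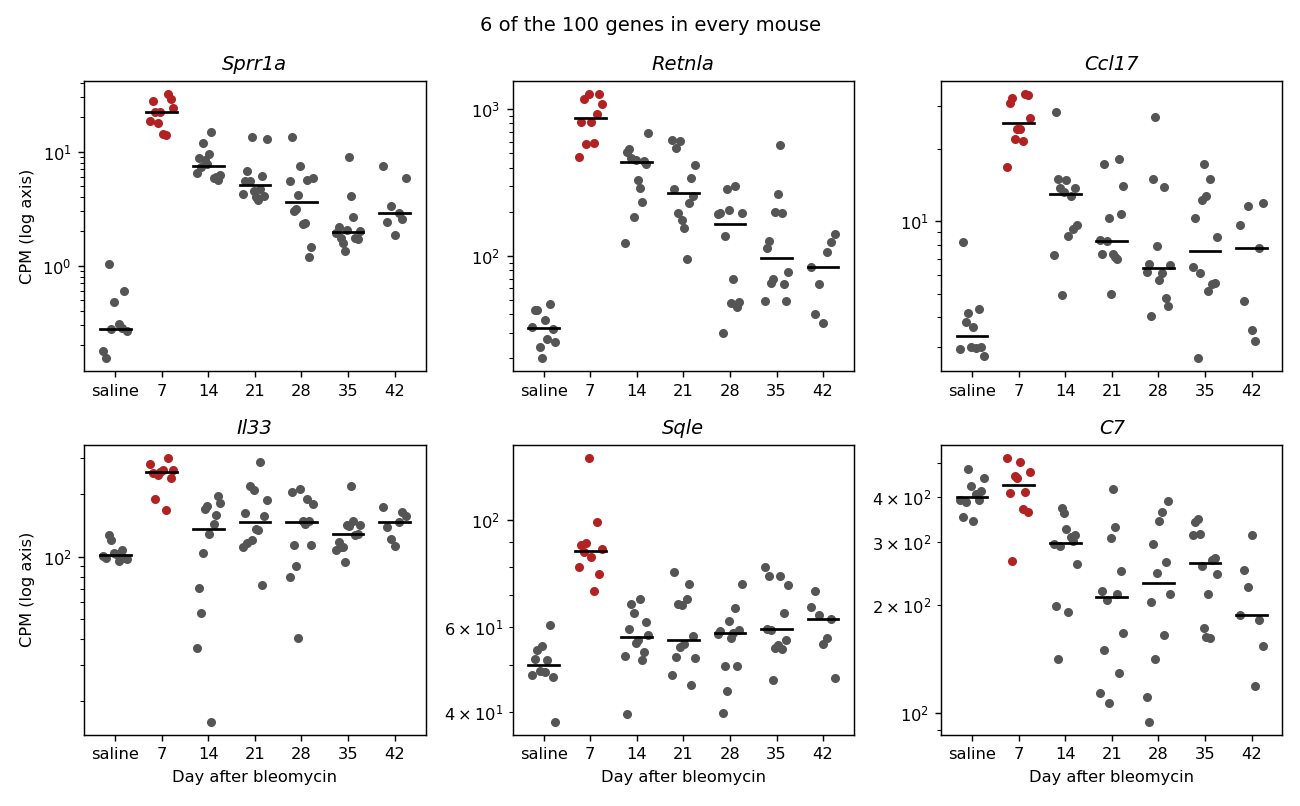
CPM on a log axis in each of the 75 mice for 6 of the 100 genes, by day after bleomycin, with saline controls at the left, day 7 in red and a bar at each median. Sprr1a, Retnla and Ccl17 had all day 7 mice above all saline mice and declined while above saline, Il33 and Sqle had day 14 medians of 136 and 57.1 CPM, and C7 was near saline on day 7 and lower later.

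Enzymes of cholesterol synthesis made up most of a further group. The group held 12 genes of sterol and fatty acid metabolism. Among them were Acat2, Mvk, Pmvk and Idi1 in the mevalonate steps, and Fdft1 and Sqle in squalene synthesis and oxidation. Lss makes lanosterol, Msmo1 and Nsdhl act from lanosterol towards cholesterol, and Elovl6 lengthens fatty acids. The day 7 differences of the 12, which the rule used, lay between 0.42 and 0.82, and those of day 14 between -0.09 and 0.42. The group median was 0.59 on day 7 and 0.11, 0.12, 0.094, 0.13 and 0.16 on the later days. In 8 of the 12 all day 7 mice were above all saline mice, and in 5 (Sqle, Acat2, Msmo1, Nsdhl and Fdft1) all were above all day 14 mice. These held for 8.91% and 0.121% of the 13247 genes. Both contrasts were part of the rule, and nothing is read from the counts.

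Sqle, a rate-limiting enzyme of the pathway, lay at 38.3 to 60.7 CPM (median 50.1) in the saline mice and 71.3 to 134 CPM (median 86.4) on day 7. It was at 39.7 to 68.6 CPM (median 57.1) on day 14, had medians of 56.4, 58.2 and 59.4 CPM on days 21, 28 and 35, and was at 47.1 to 71.3 CPM (median 62.3) on day 42. Its difference was 0.81 ± 0.095 on day 7 and 0.74 without replicate 5, which was the highest mouse. Idi1, the isomerase that makes dimethylallyl diphosphate, was at 5.36 to 9.68 CPM (median 6.69) in the saline mice, 8.4 to 18.3 CPM (median 11.9) on day 7 and 5.18 to 9.91 CPM (median 7.51) on day 14. Pmvk, phosphomevalonate kinase, was at 23.3 to 42.4 CPM (median 35), 33.2 to 80.8 CPM (median 61.8) and 29.1 to 59.3 CPM (median 42.4) in the same groups. For Idi1 and Pmvk, 8 and 9 of 10 day 7 mice were above the saline range. Replicate 5 was the highest day 7 mouse in 10 of the 12 genes, and without it the group median was 0.55. Fdft1 overlaps Ctsb, which has many more counts, on the opposite strand, and the strand setting of the counting was not given, so its values are uncertain.

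A wider list of 30 genes of cholesterol and fatty acid synthesis had 29 tested, of which 11 were among the 100. Of the 18 others, 8 rose and 1 fell on day 7, and 5 were lower and 0 higher on day 14 than on day 7. Their median log2 fold change was 0.27 on day 7 and -0.21 between day 14 and day 7. The 3 with the largest change in the edgeR test were Cyp51, the lanosterol demethylase, with 1.03 ± 0.10 (SE, adjusted p = 6.4e-13), Hsd17b7, a sterol ketoreductase, with 1.01 ± 0.15 (SE, adjusted p = 1.3e-07), and the fatty acid desaturase Scd1 with 0.99 ± 0.20 (SE, adjusted p = 3.7e-05). These 3 did not pass between day 14 and day 7, with -0.21, -0.0047 and 0.0069, and were still above saline on day 14 by 0.82, 1.01 and 1.00. On day 42 they were above saline by 0.56, 0.40 and 1.52, and Hsd17b7 did not pass. The summed level of the 30 genes had medians of 4258 CPM in saline, 5788 on day 7, 5606 on day 14 and 7046 on day 42. Scd1 alone had a day 7 mean of 2528 CPM. The return towards saline was thus found in the genes of the set, not in the whole list. Acaca, which commits carbon to fatty acids, changed sign between scalings on day 7 (-0.0069 with TMM factors and 0.0094 with library size only) and did not pass.

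Type 2 pneumocytes make surfactant lipid. Of 14 of their markers outside the set, 4 rose and 1 fell on day 7, against 24.8% and 21.0% of all genes tested. On day 14, 8 were lower and 0 higher than on day 7, against 7.55% and 9.48%. With Il33, which is in both the list and the set, their summed level was 26307 to 32275 CPM in saline, 22609 to 37871 CPM on day 7 and 9017 to 32894 CPM on day 14. The part of these cells in the lower day 14 level of the sterol genes was not tested.

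**Figure D4:**
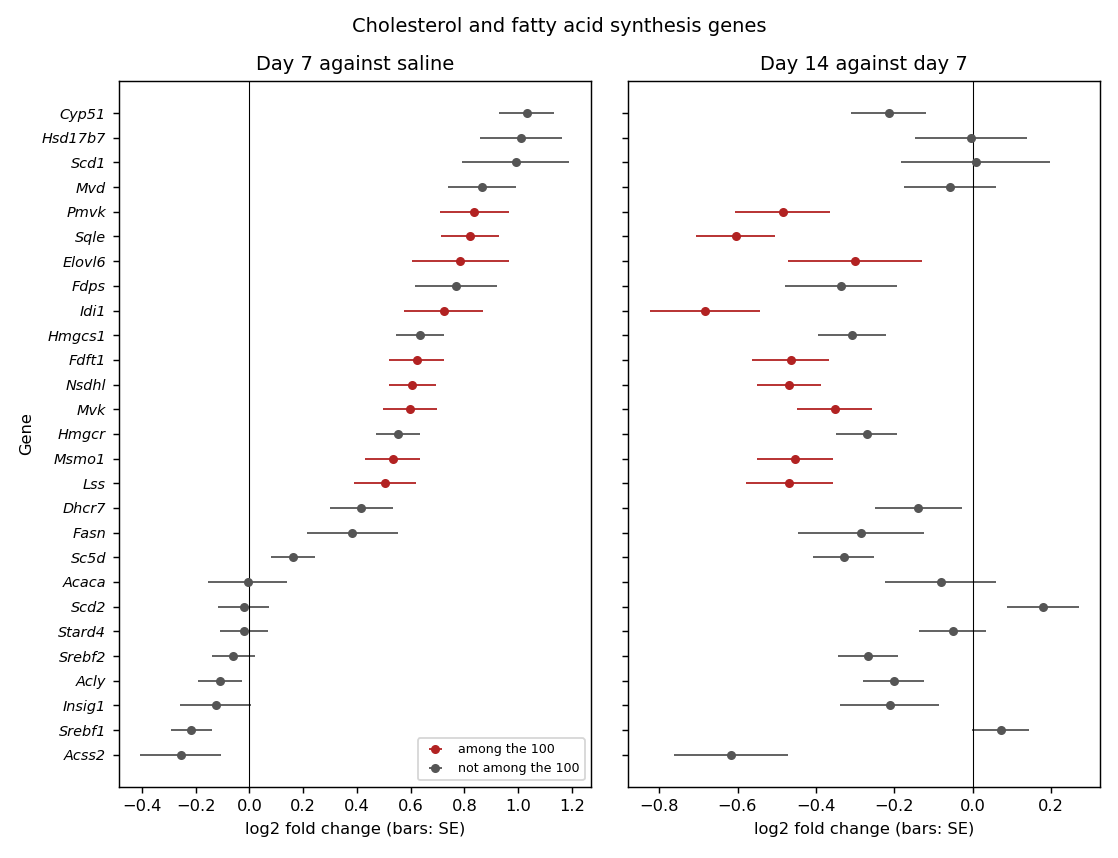
Log2 fold changes from edgeR for 27 of the 29 tested genes of cholesterol and fatty acid synthesis, on day 7 against saline (left) and day 14 against day 7 (right), with 9 of the 11 genes among the 100 in red. Bars are standard errors derived from the F statistic of the test. The red genes lie right of 0 on the left and left of 0 on the right, as their choice requires, and Cyp51, Hsd17b7 and Scd1 are right of 0 on day 7 and at -0.21, -0.0047 and 0.0069 between day 14 and day 7.

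Promoters of 8 of the 12 genes were in the tables used here. CCAAT, the box bound by NF-Y, a known partner of SREBP2, was found on either strand in 6 of the 8 (Idi1, Lss, Msmo1, Mvk, Nsdhl and Pmvk, not Acat2 or Elovl6). Over the set it was in 38 of 74 (51.4%), and over all promoters in 38.7%. TCACNCCAC, a strict form of the sterol response element, was in 0 of 74 and 1.17% of all, which says only that these letters are not in these windows. 4 of the 6 promoters with CCAAT are shown, as the 250 bases before the RefSeq start (GRCm38.p6): Mvk at chr5:114444019-114444268, plus strand, Lss at chr10:76531355-76531604, plus strand, Idi1 at chr13:8885356-8885605, plus strand and Msmo1 at chr8:64733579-64733828, minus strand. Capitals mark CCAAT or its reverse complement ATTGG, present 5 times in Mvk, 1 in Lss, 2 in Idi1 and 3 in Msmo1, none overlapping another motif searched.
Mvk: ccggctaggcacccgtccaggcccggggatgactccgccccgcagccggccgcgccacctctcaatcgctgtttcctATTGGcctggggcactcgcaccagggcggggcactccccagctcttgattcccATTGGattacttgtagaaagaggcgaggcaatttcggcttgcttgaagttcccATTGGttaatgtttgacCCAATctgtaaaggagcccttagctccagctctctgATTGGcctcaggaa
Lss: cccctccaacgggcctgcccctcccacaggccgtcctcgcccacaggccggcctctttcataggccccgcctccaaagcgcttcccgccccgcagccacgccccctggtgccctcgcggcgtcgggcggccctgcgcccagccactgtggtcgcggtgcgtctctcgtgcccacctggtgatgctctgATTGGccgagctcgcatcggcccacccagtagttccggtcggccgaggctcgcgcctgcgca
Idi1: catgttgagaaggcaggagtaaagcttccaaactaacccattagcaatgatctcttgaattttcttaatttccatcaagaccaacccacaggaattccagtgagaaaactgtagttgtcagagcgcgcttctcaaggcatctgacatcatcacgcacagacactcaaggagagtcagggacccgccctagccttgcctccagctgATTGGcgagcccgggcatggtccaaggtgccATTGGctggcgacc
Msmo1: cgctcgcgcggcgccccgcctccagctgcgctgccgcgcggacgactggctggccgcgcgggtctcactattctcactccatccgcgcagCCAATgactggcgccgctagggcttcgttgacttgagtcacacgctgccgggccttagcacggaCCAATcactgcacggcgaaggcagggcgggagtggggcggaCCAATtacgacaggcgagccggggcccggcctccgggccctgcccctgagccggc

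Targets of p53 and other stress genes gave the second highest group median on day 7. Gdf15, a stress cytokine, lay at 0.603 to 1.72 CPM (median 1) in the saline mice, 6.66 to 13.6 CPM (median 11.9) on day 7 and 3.42 to 11.4 CPM (median 8.22) on day 14, and at 3.26 to 6.28 CPM (median 4.12) on day 42. Ccng1 (cyclin G1), a classic p53 target, was at 102 to 123 CPM (median 113) in the saline mice and in a narrow range of 359.8 to 478 CPM (median 421) on day 7. On day 14 its range was 193 to 392 CPM (median 315), the medians were 267, 248 and 222 CPM on days 21, 28 and 35, and the day 42 mice lay at 189 to 234 CPM (median 214). Its difference of 1.86 ± 0.048 had the smallest error of the set, and the 10 day 7 mice were all above the saline range. Sesn2, a sestrin induced by p53 and ATF4, was at 22.2 to 30.8 CPM (median 26.9), 47 to 68.8 CPM (median 56.4) and 28.9 to 50.7 CPM (median 46.5) in saline, on day 7 and on day 14. Ddit4l, an inhibitor of mTOR signalling, was at 2.2 to 5.33 CPM (median 2.85), 4.64 to 8.94 CPM (median 7.84) and 2.39 to 8.18 CPM (median 5.95) in the same 3 groups. The means of all 4 were above saline on every day, with day 42 differences of 1.42, 0.88, 0.35 and 0.44. Perp, a desmosomal p53 target, was 0.46 above saline on day 7 and -0.093 on day 14. Chac1, which degrades glutathione under ATF4, did not stand above saline on day 7, with 3.92 to 6.13 CPM (median 5.08) in saline, 3.4 to 6.33 CPM (median 5.39) on day 7 and 2.19 to 4.9 CPM (median 3.76) on day 14, and is in the set through its lower level later.

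Among 30 p53 targets, 26 were outside the set, of which 18 rose and 2 fell on day 7. Of these 26, 2 were lower and 2 higher on day 14 than on day 7. In the edgeR test Cdkn1a again led, followed by Psrc1 with 3.13 ± 0.20 (SE, adjusted p = 9.3e-22) and Gtse1 with 2.67 ± 0.22 (SE, adjusted p = 3.9e-16), both regulators of mitotic microtubules, and none of the 3 passed between day 14 and day 7. Of 29 genes of the unfolded protein and integrated stress response, 2 (Sesn2 and Chac1) were in the set. Of the other 27, 17 rose and 3 fell on day 7 in the edgeR test, with 1.57 ± 0.17 (SE, adjusted p = 1.3e-11) for the folate enzyme Mthfd2, 1.55 ± 0.14 (SE, adjusted p = 6.6e-14) for the serine enzyme Psat1 and 1.19 ± 0.14 (SE, adjusted p = 8.3e-11) for the chaperone Sdf2l1, and 1 was lower and 1 higher on day 14 than on day 7.

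The promoter of Ccng1 (chr11:40755287-40755536, minus strand, GRCm38.p6, RefSeq) is shown because that gene's day 7 difference had the smallest error of the set. Capitals mark the p53 half-site, a motif of 10 bases searched on both strands and overlapping no other motif searched, which was in 2 of the 5 promoters found for this group (Ccng1 and Ddit4l), in 8 of 74 over the set (10.8%) and in 7.25% of all.
Ccng1: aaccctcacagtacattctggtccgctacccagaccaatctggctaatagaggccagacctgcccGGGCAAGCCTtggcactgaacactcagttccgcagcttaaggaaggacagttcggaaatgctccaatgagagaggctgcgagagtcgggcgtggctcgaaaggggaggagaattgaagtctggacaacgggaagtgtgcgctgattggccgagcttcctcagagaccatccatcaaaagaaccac

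Secreted defence proteins and protease inhibitors were mixed in course. Lcn2, a siderophore-binding acute phase protein, lay at 59.8 to 121 CPM (median 81.7) in the saline mice, 428 to 608 CPM (median 523) on day 7, 163 to 552 CPM (median 404) on day 14 and 139 to 611 CPM (median 354) on day 42, so it stayed far above saline and only its peak was early. Serpina3m, a serine protease inhibitor induced in the acute phase, was at 2.06 to 7.55 CPM (median 3.7), 8.39 to 70.3 CPM (median 24.3) and 5.81 to 83.8 CPM (median 13.7) in saline, on day 7 and on day 14, and was below saline by day 42, with a difference of -0.45. Its neighbour Serpina3c was 0.70 above saline on day 7, and reads may be shared within this gene family. Hp (haptoglobin), which binds free haemoglobin, was at 639 to 894 CPM (median 783), 752 to 1743 CPM (median 1057) and 565 to 1067 CPM (median 803) in the same 3 groups, and 9 of 10 day 7 mice were above the saline range. Slpi, an inhibitor of neutrophil elastase, was 0.67 above saline on day 7 and 0.034 on day 14.

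Timp4, a metalloproteinase inhibitor, lay at 1.51 to 4.26 CPM (median 3.09) in the saline mice, 2.48 to 8.93 CPM (median 4.83) on day 7 and 1.47 to 5.57 CPM (median 2.74) on day 14, but it overlaps Syn2 on the opposite strand and is uncertain. C7, a part of the membrane attack complex made by fibroblasts, was at 343 to 480.1 CPM (median 401), 266 to 516 CPM (median 434) and 142 to 375 CPM (median 299) in the same 3 groups, and at 119 to 315 CPM (median 188) on day 42. Day 7 did not stand apart from saline for C7, with 2 mice above the saline range, and its difference reached -1.04 on day 42. Itih2, a hyaluronan-binding inhibitor chain, was at 3.16 to 4.76 CPM (median 4.05), 3.91 to 7.71 CPM (median 5.45) and 1.56 to 6.94 CPM (median 4.28) in them. Among 24 acute phase and injury genes outside the set, 19 rose and 1 fell on day 7, and 4 were higher and 2 lower on day 14 than on day 7. In the edgeR test, Timp1, an inhibitor of metalloproteinases, rose by 4.33 ± 0.51 (SE, adjusted p = 2.4e-10), serum amyloid Saa3 by 4.20 ± 0.82 (SE, adjusted p = 2.1e-05) and orosomucoid Orm1 by 3.44 ± 0.55 (SE, adjusted p = 5e-07), and none of these 3 passed between day 14 and day 7. Club cell markers, a list that includes Hp, had a summed level of 27029.7 to 34716 CPM in saline, 10278 to 26077 CPM on day 7 and 3829.6 to 20285 CPM on day 14, and 7 of the 9 markers other than Hp were lower on day 14 than on day 7, and their part was not tested.

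Among the 100 were 5 genes of cilia and centrioles. In 1 of them, Tubb4b, all day 7 mice were above all saline mice, against 8.91% of the 13247 genes, and the rule used this contrast. Ccno, a cyclin needed for making the basal bodies of many cilia, lay at 2.04 to 3.42 CPM (median 2.5) in the saline mice, 2.76 to 8.11 CPM (median 4.72) on day 7 and 1.05 to 3.76 CPM (median 2.05) on day 14, and 9 of 10 day 7 mice were above the saline range. Deup1, which builds the deuterosome, was at 2.97 to 6.33 CPM (median 4.53), 3.85 to 9.75 CPM (median 7.08) and 0.846 to 5.56 CPM (median 3.09) in the same 3 groups, with 7 day 7 mice above that range. Tubb4b, the axonemal beta tubulin, was at 168 to 218 CPM (median 188), 221 to 349 CPM (median 273) and 158 to 257 CPM (median 197) in them, and all 10 day 7 mice were above the saline range. Crocc2 (a rootlet protein) and Ssx2ip (a centriolar satellite protein) differed from saline by 0.19 and 0.22 on day 7 and by -0.77 and -0.12 on day 14. Of 15 markers of mature ciliated cells, 0 rose and 5 fell on day 7, against 24.8% and 21.0% of all genes tested. On day 14, 11 were lower than on day 7, against 7.55%. Their summed level was 714 to 971 CPM in saline, 441 to 706 CPM on day 7 and 193 to 574 CPM on day 14.

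The 6 genes of vessels, lymphatics and stroma were all below saline on every later day, and their day 7 differences were at most 0.30. Lyve1, the hyaluronan receptor of lymphatic endothelium and some tissue macrophages, lay at 361 to 540.0 CPM (median 431) in the saline mice and 227 to 1333 CPM (median 524) on day 7. The day 14 mice lay at 188 to 901 CPM (median 277), the medians of days 21, 28 and 35 were 190.4, 222 and 200.2 CPM, and the day 42 range was 152 to 259 CPM (median 196). Only 5 of 10 day 7 mice were above the saline range, and without replicate 5 the day 7 difference was 0.16 in place of 0.30, so the larger differences of this gene are those from day 14 on. Pi16, a marker of adventitial fibroblasts, was at 24.9 to 33.7 CPM (median 29.1) in the saline mice and 24.8 to 50.7 CPM (median 36.5) on day 7. It was at 9.12 to 41.6 CPM (median 21.8) on day 14, had medians of 15.9, 18.4 and 21.8 CPM on days 21, 28 and 35, and was at 10.8 to 26.8 CPM (median 14.8) on day 42. Rgcc, a regulator of the cell cycle expressed in capillary endothelium, was at 66.2 to 172 CPM (median 132), 72.1 to 282 CPM (median 149.9) and 52.4 to 202 CPM (median 102) in saline, on day 7 and on day 14, with 2 day 7 mice above the saline range and a day 7 difference of 0.22, or 0.11 without replicate 5. Gpr182, an endothelial scavenger receptor for chemokines, had differences of 0.19 on day 7 and -0.86 on day 42, Lipg of 0.026 (0.0014 without replicate 5) and -0.47, and the smooth muscle calponin Cnn1 of 0.038 and -0.53. Of 16 endothelial markers, 0 rose and 10 fell on day 7, against 24.8% and 21.0% of all genes tested. Their sum was 5579 to 7253 CPM in saline, 4501 to 5260.1 CPM on day 7 and 3475 to 5573 CPM on day 14.

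A group of 12 enzymes acts on glutathione, amino acids, retinoids, steroids and drugs. Aldh1a3, which makes retinoic acid, lay at 1.34 to 4.14 CPM (median 2.1) in the saline mice, 3.57 to 15.9 CPM (median 8.29) on day 7 and 1.52 to 13.2 CPM (median 3.89) on day 14, and 9 of 10 day 7 mice were above the saline range. Sult1a1, a phenol sulfotransferase, was at 30.1 to 79 CPM (median 54), 26.6 to 121 CPM (median 61.1) and 24.9 to 44.1 CPM (median 36.6) in the same 3 groups. Its 3 day 7 mice above the saline range and its difference of 0.14 without replicate 5 leave day 7 close to saline, whereas 9 of 10 were above the day 14 range. Acsm1, a medium-chain acyl-CoA synthetase, was at 5.77 to 8.5 CPM (median 7.32), 7.44 to 12.2 CPM (median 8.62) and 0.462 to 9.39 CPM (median 2.82) in them, and its day 14 difference of -0.94 was among the lowest of the set. Hsd11b2, which inactivates glucocorticoids, was 1.56 ± 0.093 above saline on day 7 with all 10 mice above both the saline and the day 14 range, and still 0.51 above on day 42.

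Glutathione enzymes were split. Gclc, the catalytic subunit of glutathione synthesis, was 0.88 above saline on day 7 and between 0.41 and 0.51 later, and the omega transferase Gsto1 was 0.73 above on day 7 and 0.19 on day 14. The kappa transferase Gstk1 and the aminotransferase Kyat3 were close to saline on day 7, at 0.043 and 0.016 (0.0066 and -0.016 without replicate 5), and at -0.66 and -0.48 on day 14. Mat1a, which makes S-adenosylmethionine, Shmt1, which passes carbon from serine to folate, and Cth, which makes cysteine, were 0.83, 0.61 and 0.33 above saline on day 7 and at 0.29, 0.21 and -0.49 on day 14. Akr1c14, a steroid reductase, was at 0.22 and at 0.08 without replicate 5. In the group of 12, replicate 5 was the highest day 7 mouse in 8 and replicate 1 the lowest in 9. Shmt1, Gsto1 and Sult1a1 overlap a gene with at least 20% as many counts on the opposite strand and are uncertain.

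Genes of the clock and of hypoxia were few and varied widely between mice. Cry1, a repressor of the circadian clock, lay at 22 to 52.6 CPM (median 31.8) in the saline mice, 23.8 to 50.9 CPM (median 42.3) on day 7 and 14.7 to 41.6 CPM (median 26.6) on day 14, and at 11.5 to 20.9 CPM (median 16.3) on day 42. No day 7 mouse was above the saline range. The Cry1 values followed the replicate number in these 2 groups. Saline replicates 1 to 5 lay at 22 to 30 CPM and replicates 6 to 10 at 33.6 to 52.6 CPM. Day 7 replicates 1 to 4 lay at 23.8 to 31.1 CPM and replicates 5 to 10 at 41.2 to 50.9 CPM. Day 14 had no such order, with 32.2 CPM in replicate 1 and 25.7 CPM in replicate 10. What the order stands for is not given in the labels and was not tested. Hif3a, a glucocorticoid-induced member of the hypoxia-inducible factors, was at 2.11 to 8.79 CPM (median 5.73), 3 to 19.6 CPM (median 7.31) and 2.02 to 16.2 CPM (median 6.61) in saline, on day 7 and on day 14, and its difference was 0.29 without replicate 5 in place of 0.43. A list of 30 genes of the glucocorticoid and fasting response held 3 of the set, Sult1a1, Hif3a and Lcn2. Of the other 27, 6 rose and 6 fell on day 7, against 24.8% and 21.0% of all genes tested, and nothing is read from these counts. In the edgeR test the largest changes were 3.24 ± 0.51 (SE, adjusted p = 3.3e-07) and 1.74 ± 0.34 (SE, adjusted p = 2.6e-05) for the metallothioneins Mt2 and Mt1 and 1.54 ± 0.32 (SE, adjusted p = 6e-05) for the transcription factor Nfil3. Between day 14 and day 7, 3 of the 27 were higher and 4 lower, against 9.48% and 7.55% of all genes tested.

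The other 32 genes share no common role. Cnga2, a subunit of the cyclic nucleotide-gated channel of olfactory neurons, ranked in the first 10 at a low level, with 1.66 to 3.22 CPM (median 2.29) in the saline mice and 2.57 to 14.3 CPM (median 4.98) on day 7. On day 14 its range was 1.83 to 4.99 CPM (median 2.57), the medians were 2.34, 2.4 and 2.77 CPM on days 21, 28 and 35, and the day 42 mice lay at 1.22 to 3.55 CPM (median 2.66). Of its day 7 mice, 9 were above the saline range, and replicate 5 was the highest. Those with a day 7 difference of at least 1 over all 10 mice were Ankrd1 (1.93), Alpl (1.08), Atg9b (1.93), Thyn1 (1.12), Dglucy (1.28), Atp6v0a4 (1.10) and Mybl1 (1.17). Ankrd1 is a stretch- and YAP-induced nuclear protein, Alpl the tissue-nonspecific alkaline phosphatase, Dglucy a D-glutamate cyclase, and Atg9b an autophagy protein whose locus overlaps Nos3. Of the 32, 8 were above saline on all 5 later days, 15 below on all 5 and 9 mixed, and the group median was 0.43 on day 7 and -0.18 on day 21.

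Day 7 differences from 0.5 to under 1 were found in Fam167a, Cox6b2, Gdpd2, Map3k6, Slc35g1, Nup35 and Prcd. Of these, Map3k6 is a stress kinase, Cox6b2 a cytochrome oxidase subunit and Nup35 a nuclear pore protein. Under 0.5 were Entpd3, Gpr179, 6430531B16Rik, Acot7, Bcas1, Sh3d21, Ifitm1, Myrip, Cpox, Rnf39, Rasgrf1, Dll1, AA986860, Slc24a4, Bcar3, Prrg3 and Gpr137c, among them the Notch ligand Dll1, the haem synthesis enzyme Cpox, the ectonucleotidase Entpd3 and the interferon-induced membrane protein Ifitm1. Prcd, Atg9b, Gpr137c, Nup35, Atp6v0a4, 6430531B16Rik and Dglucy overlap a gene with at least 20% as many counts, and so does Gpr182 among the endothelial genes.

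**Figure D5:**
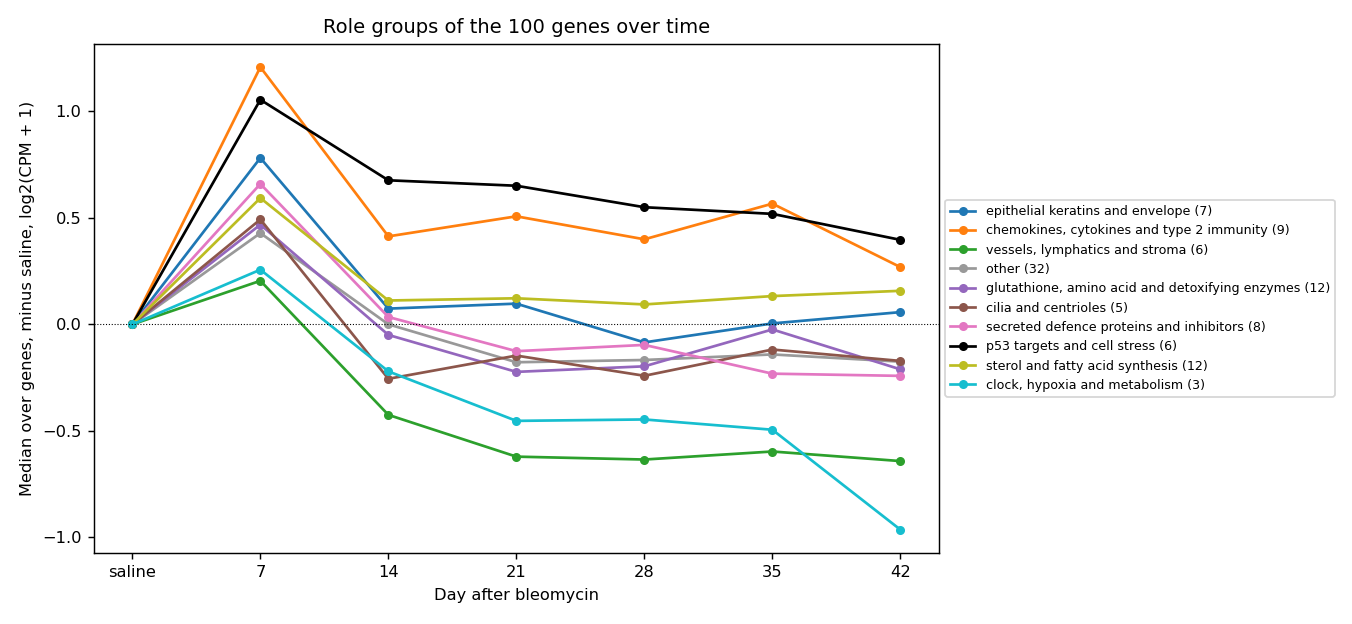
Median over the genes of each role group of the difference from saline in mean log2(CPM + 1), by day after bleomycin, with saline at 0 and the number of genes in parentheses. The groups of chemokines and cytokines (1.21) and of p53 and stress genes (1.05) were highest on day 7 and remained above 0. The 12 sterol and fatty acid genes of the set had 0.11 on day 14, and the vessel group reached -0.64 on day 42.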

How the data were processed

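RNA of the inferior lobe of 75 mice was sequenced by the authors from directional libraries, aligned with STAR 2.7.0f to GRCm38 per the labels, and deposited as raw counts per gene. The counting program and its strand setting are not given in the sources used here. Total counts per library were 9240291 to 14665247 (median 10677163), which limits low genes. Within groups, no pair of 375 pairs of mice agreed within sampling noise (lowest chi-square per degree of freedom 3.88). Genes were ranked in Python 3.11.15 as stated above, with a pseudocount of 1. Differences are given with the SE from the spread between mice. Differential expression was fitted over all 7 groups in R 4.3.3 with edgeR 4.0.16 (filterByExpr, TMM factors, quasi-likelihood test) and adjusted by Benjamini-Hochberg over 16221 genes at 0.05. The SE of a log2 fold change was derived as its absolute value divided by the square root of the F statistic. That script was tested on simulated data. DESeq2, other scalings, filters, subsets of mice and a replicate block were alternatives.

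The 100 genes, the role groups and the gene lists were chosen with earlier results of these data known. All 100 genes passed the filter of the fit. Full ranges are given for the 10 genes ranked first and the first 3 of each role group or list described, and other genes are named as the 3 with the largest tested day 7 change in lists with at least 2 of the 100, or where scaling changed their sign. Results for 3 of the 100 genes by name are not reported here, and these genes stay in the counts and medians. Replicates are separate mice.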

Additional observations from a re-analysis of the deposited data

Results flagged for a closer look

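Among 35 genes with full ranges, the saline, day 7 and day 42 groups (105 groups) were each checked for 1 mouse far from the others on the log2(CPM + 1) scale by Dixon's criterion, which chance meets in about 1 group in 20, and 5 met it. Saline replicate 2 had 8.21 CPM of Ccl17 against 2.75 to 4.33 CPM in the other saline mice. Day 7 replicate 1 was low for Anxa8, at 35.8 CPM against 51.96 to 70.8. Day 7 replicate 3 was low for C7, at 266 CPM against 364 to 516. Day 7 replicate 5 was high for Sqle, at 134 CPM against 71.3 to 99.1, and low for Ddit4l, at 4.64 CPM against 6.59 to 8.94.

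Of 22 tested genes outside the set that are named here, 2 differed between the day 14 and day 7 effects. Nfil3 was higher on day 14 than on day 7 by 0.86 on the log2 scale (edgeR quasi-likelihood test, adjusted p = 0.027), and with only the 2 groups in the fit by 0.85 (adjusted p = 0.142). Cxcl12 was higher on day 14 by 0.65 (edgeR quasi-likelihood test, adjusted p = 0.0073), and passed in all 8 alternatives run.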

How the results depend on the processing

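The set kept 83 to 97 of its 100 genes when the pseudocount, the minimum level or the scaling was changed, 99 with all gene types admitted and 69 when group medians replaced means. Leaving out 1 day 7 mouse kept 88 to 97, with the fewest without replicate 5, and leaving out 1 saline mouse kept 97 to 100. Leaving out both day 7 replicates 1 and 5, an alternative chosen after seeing the data, kept 88. In all 10 lists that left out a day 7 mouse, 70 genes remained, and 48 remained in every alternative. The median day 7 difference was 0.56, and 0.55 with TMM-scaled CPM. Calls on day 7 against saline numbered 7429, and 5239 to 8025 under the alternatives. Calls on day 14 against day 7 numbered 2763, and 2054 to 2970. Where a gene needed 10 counts in each mouse to be tested, 11 acute phase genes and 8 chemokines and cytokines outside the set were called higher on day 7, in place of 19 and 18, since fewer of them were tested (16 and 13). A count of lower calls among a list's genes outside the set moved by over 1.5 times in 21 further cases, the most from 6 to 2. The 20 other genes named for their change on day 7 kept their direction and side of the threshold in all 353 alternative values. Same-numbered day 7 and saline mice deviated together (r over 0.1) in 4 of 10 pairs, so the numbers were not taken to pair the mice. With a replicate block over replicates 1 to 7, 5319 genes were called on day 7 and 2080 between day 14 and day 7, against 5239 and 2054 for the same mice with no block. Depth limits the 35 genes under 10 CPM.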

Other observations

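Of 40 gene lists examined, 23 held none of the 100 genes, 10 held 1 and 7 held at least 2, and 35 of the 100 were in any list. The lists of S phase and of mitosis genes held none. With 100 of 13247 genes taken, nothing is read from a list that held none. All 30 tested genes of the S phase list and all 30 of the mitosis list rose on day 7 (edgeR quasi-likelihood test), against 24.8% of all genes tested. Between day 14 and day 7, 1 and 5 of them were higher and 0 were lower.

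Among the 100 genes, 8 pairs lay within 500000 bases of each other with no other of the 100 between them. The closest were Prrg3 and Cnga2 on the X chromosome (19127 bases apart), Krt8 and Krt18 on chromosome 15 (23698 bases) and Ccl22 and Ccl17 on chromosome 8 (58754 bases).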
